A study of Mus musculus with 6 samples.

Results

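Expression of 10 genes of the Nodal pathway and the primitive streak was followed across mouse cells on their way from epiblast stem cells to oligodendrocytes. The genes, taken by name from a set chosen with earlier results of these data known, were Nodal, Tdgf1, Lefty1, Lefty2, Cer1, Foxh1, Eomes, Gsc, Mixl1 and Fgf8. All 10 were measured among 19938 genes, each by 1 row of the array table that carries only its symbol. RNA of strain 129 cells was measured on 6 Affymetrix gene arrays. Epiblast stem cells (EpiSCs, 1 array) are pluripotent cells with the character of the postimplantation epiblast, grown here in knockout serum replacement with FGF2. Patterned neural rosettes at day 5 (1 array) were made from them with SB431542, Dorsomorphin, Noggin, retinoic acid (RA) and sonic hedgehog (SHH). Oligodendrocyte progenitor cells (OPCs, 2 arrays) were grown from dissociated rosettes in N2B27 medium with FGF2, PDGF-AA and SHH. Oligodendrocytes (2 arrays) came from OPCs given thyroid hormone, without FGF2 and PDGF-AA. Where a pair of values is given for OPCs or oligodendrocytes, the value at passage 3 (replicate 1) precedes that at passage 11 (replicate 2). Apart from passage, nothing in the labels says which cultures were independent, and the p-values below reflect the scatter among these arrays alone, which may be technical.

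Nodal is a secreted ligand of the TGF-beta family that signals through activin receptors. It needs the co-receptor Cripto, encoded by Tdgf1, and activates the transcription factors SMAD2 and SMAD3, which act on target genes with SMAD4 and FOXH1. The pathway switches on its own ligand and its own inhibitors, the Lefty proteins. In the mouse epiblast it maintains pluripotent cells and induces the primitive streak, the site where mesoderm and endoderm form, and its inhibition favours neural fate. SB431542 inhibits the type I receptors of Nodal, activin and TGF-beta.

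Each labelled cell type carried markers of its type, some of them shared with other types. By limma's test at an adjusted p under 0.05, 2.93% of all genes were lower in OPCs than in EpiSCs. Of 8 epiblast markers all 8 were, among them the pluripotency factors Pou5f1 and Nanog. Their median log2 difference from EpiSCs was -3.66 in the rosette and -4.12 in OPCs. The mean log2 value of 8 neural rosette markers was 11.71 in the rosette and 9.88 in EpiSCs, 7 of 7 OPC markers rose in OPCs over EpiSCs, and 6 of 6 measured oligodendrocyte markers rose in oligodendrocytes over OPCs. Values are log2 expression as the authors deposited them. Background cannot be separated from a low value here, since no detection call was used, and a fold difference that reaches that level may be compressed. These are bulk cultures, in which fewer cells of a type and less RNA per cell cannot be told apart.

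Every one of the 10 genes had its highest value on the EpiSC array. The gap from there to the next highest array was wider than the whole range of the 5 later arrays for 9 of them, and Gsc was the exception. How many of all genes show either pattern was not counted. In the rosette 7 of the 10 were at least 4-fold below EpiSCs: Nodal, Tdgf1, Lefty1, Lefty2, Cer1, Foxh1 and Eomes. Of all genes, 0.797% were that much lower in the rosette and 1.75% that much higher. OPCs, whose listed medium holds no SB431542, had 8 of the 10 below EpiSCs by limma's test, namely those 7 and Mixl1, against 2.93% of all genes called lower and 4.07% called higher. The median log2 difference of the 10 genes was -3.41 for the rosette and -3.31 for OPCs, each against EpiSCs, while the medians over all genes were -0.07 and -0.05. Both comparisons use the same EpiSC array. SB431542 was given to the rosettes together with 4 other factors, so its part in these values cannot be told apart from theirs. In the rosette Tdgf1 was lower by a log2 difference of -6.23 (74.9-fold), Lefty2 by -4.63, Lefty1 by -4.18, Eomes by -3.64, Cer1 by -3.55, Foxh1 by -3.27 and Nodal by -2.97. Beyond these 7, Mixl1 stood at -1.86, Fgf8 at -1.10 and Gsc at -0.27. With 1 array each, the rosette and EpiSCs have no test between them.

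**Figure D1:**
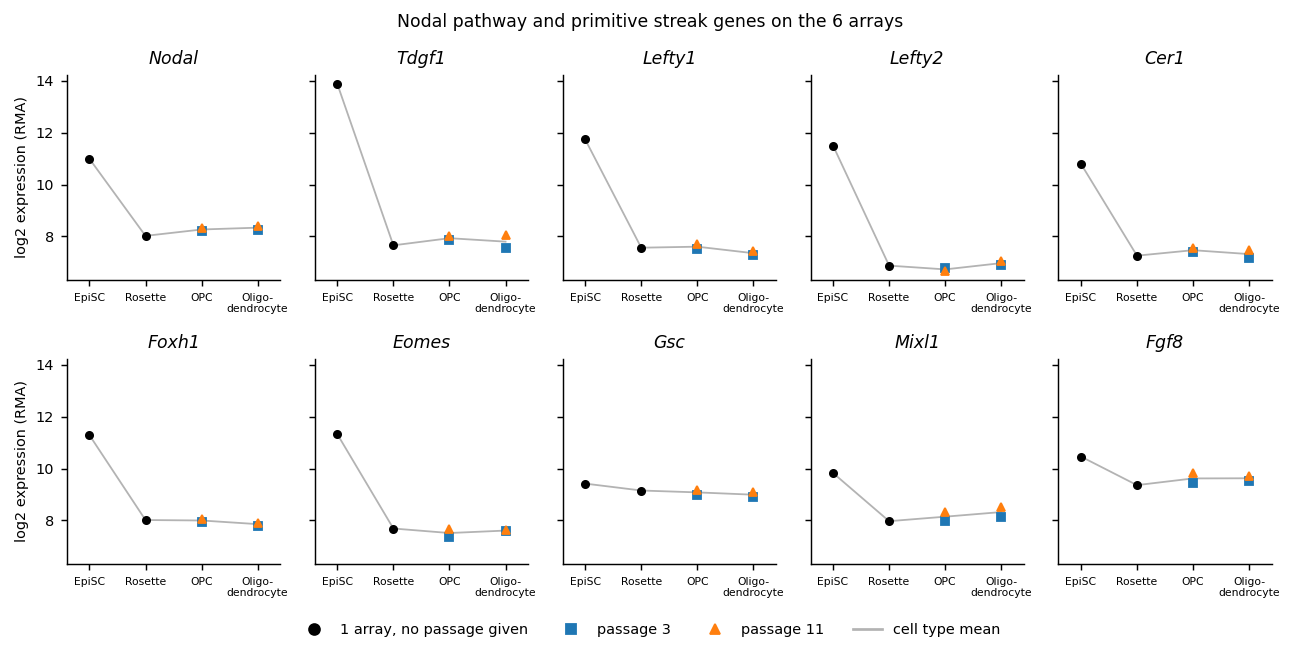
Log2 expression of each gene (vertical axis) on the 6 arrays, by cell type in order of differentiation, with the grey line through the cell type means. Circles are the lone EpiSC and rosette arrays, squares passage 3 and triangles passage 11. In all panels but that of Gsc the EpiSC array stands apart from the 5 later ones.

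Nodal, the ligand, had a log2 value of 10.99 on the EpiSC array, 8.02 in the rosette, 8.22 and 8.31 in OPCs, and 8.26 and 8.41 in oligodendrocytes. The 5 later arrays spanned 0.39, and the nearest of them lay 2.58 below EpiSCs. In OPCs Nodal fell by 2.73 (SE 0.18, 2 OPC arrays and 1 EpiSC array, limma adjusted p = 0.0029), which is 6.62-fold. The EpiSC array has no replicate, so each such test borrows its spread from the OPC and oligodendrocyte pairs. Where 1 OPC array is left out below, the spread comes from the oligodendrocyte pair, with 1 residual degree of freedom. A call can then end without the difference itself moving much.

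Tdgf1, whose product Cripto binds Nodal to its receptors, had the largest difference of the 10. Its log2 value was 13.88 in EpiSCs, 7.66 in the rosette, 7.86 and 8.002 in OPCs, and 7.55 and 8.05 in oligodendrocytes. In OPCs Tdgf1 fell by 5.95 (SE 0.25, limma adjusted p = 0.0019), or 61.9-fold, and the oligodendrocyte pair, 0.50 apart, was the most widely spaced pair of any of the 10 genes. The RefSeq promoter table (build GRCm38.p6, 250 bases before to 50 after the start site) held 5 of the 10 genes: Nodal, Tdgf1, Cer1, Eomes and Gsc. Those of the gene that fell most, of the ligand and of Gsc, which was not called, are shown, 5′ to 3′ on the strand of the gene, to let the fallen genes be set beside the one that was not called. Capitals mark the GC-rich SMAD motif GGCGC or GGCTC, or its reverse complement.

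Tdgf1, chr9:110946109-110946408, minus strand: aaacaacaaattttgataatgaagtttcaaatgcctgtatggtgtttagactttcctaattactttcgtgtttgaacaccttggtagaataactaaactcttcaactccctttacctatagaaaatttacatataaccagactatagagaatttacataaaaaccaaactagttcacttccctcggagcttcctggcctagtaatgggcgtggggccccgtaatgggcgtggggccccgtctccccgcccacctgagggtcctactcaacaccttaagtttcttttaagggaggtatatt
Nodal, chr10:61417722-61418021, plus strand: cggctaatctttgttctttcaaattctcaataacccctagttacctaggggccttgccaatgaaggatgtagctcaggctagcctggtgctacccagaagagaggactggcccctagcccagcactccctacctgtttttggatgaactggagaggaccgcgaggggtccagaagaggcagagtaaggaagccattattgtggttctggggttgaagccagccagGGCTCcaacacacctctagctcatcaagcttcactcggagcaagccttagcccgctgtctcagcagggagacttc
Gsc, chr12:104473187-104473486, minus strand: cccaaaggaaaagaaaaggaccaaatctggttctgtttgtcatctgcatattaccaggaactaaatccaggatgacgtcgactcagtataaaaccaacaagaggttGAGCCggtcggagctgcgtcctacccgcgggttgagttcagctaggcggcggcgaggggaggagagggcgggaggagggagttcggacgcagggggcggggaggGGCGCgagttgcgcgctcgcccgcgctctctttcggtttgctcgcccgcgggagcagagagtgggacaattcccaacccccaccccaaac

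The GC-rich SMAD motif, GGCGC or GGCTC read on both strands, was found in 4 of the 5 promoters, all but that of Tdgf1. It was in 70.4% of 32851 mouse promoters of the same length. Of SMAD motifs only this and the palindrome below were searched, so other SMAD sites may lie in any of the windows. Nodal held 1 copy, Eomes 1, Cer1 2 and Gsc 2. The FOXH1 motif AATACACA or AATCCACA, held by 1.82% of all promoters, was in 0 of the 5. The SMAD palindrome GTCTAGAC (0.21% of all promoters), the T-box motif TCACACCT (1.28%) and the TCF motif CTTTGA (16.0%) were likewise in 0 of the 5, each read on both strands. The copies found do not overlap one another, and no letters of 1 motif lie within another. The windows differed in CpG dinucleotides: Gsc held 25, Eomes 10, Tdgf1 7, Cer1 6 and Nodal 5, with a median of 7 over all promoters. These letters describe the windows only and show neither binding nor its absence.

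Lefty1 and Lefty2 encode closely related secreted inhibitors that block Nodal and its co-receptor and are direct targets of the pathway. Lefty1 had a log2 value of 11.74 in EpiSCs, 7.56 in the rosette, 7.50 and 7.71 in OPCs, and 7.27 and 7.44 in oligodendrocytes. For Lefty2 the log2 values were 11.51 in EpiSCs, 6.87 in the rosette, 6.78 and 6.68 in OPCs, and 6.89 and 7.05 in oligodendrocytes. Both had 1 high array, that of EpiSCs, and the later arrays of each lay within 0.44 of one another. In OPCs Lefty1 fell by 4.14 (SE 0.19, limma adjusted p = 0.0020) and Lefty2 fell by 4.78 (SE 0.18, adjusted p = 0.0015), or 17.6-fold and 27.4-fold. Whether probes of one paralog also bind RNA of the other was not tested.

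Cer1 encodes Cerberus-like, a secreted antagonist of Nodal and BMP ligands made by endoderm that patterns the embryo. Its log2 values were 10.80 in EpiSCs, 7.26 in the rosette, 7.39 and 7.55 in OPCs, and 7.16 and 7.47 in oligodendrocytes. OPCs were lower than EpiSCs by a log2 difference of -3.33 (SE 0.21, limma adjusted p = 0.0028). Markers of endoderm, which also makes Cer1, were measured alongside. Of 12, 0 were 4-fold lower in the rosette (0.797% of all genes). Between OPCs and EpiSCs 0 were called (2.93% of all genes lower, 4.07% higher). Those counts of 0 are near the shares of all genes. By sign, 11 of the 12 were below EpiSCs in the rosette and 11 in OPCs, while 41.3% and 42.4% of all genes were above. Among genes whose mean lay under the median of all values, 29.3% were above EpiSCs in the rosette and 34.4% in OPCs. The mean of the 12 markers lay under that median on each array. The differences of the 12 from EpiSCs ranged from -0.81 to 0.24 in the rosette and from -0.63 to 0.28 in OPCs. Sox17, a defining endoderm factor, had log2 values between 7.73 and 8.16 on the later arrays, against 8.51 in EpiSCs.

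Foxh1, the DNA-binding partner of the activated SMADs, had a log2 value of 11.29 in EpiSCs, 8.02 in the rosette, 7.94 and 8.06 in OPCs, and 7.80 and 7.91 in oligodendrocytes. Its 5 later arrays were the tightest of the 10 genes, spanning 0.26. In OPCs Foxh1 fell by 3.29 (SE 0.17, limma adjusted p = 0.0022).

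Eomes is a T-box factor needed for mesoderm and definitive endoderm in the mouse, and is itself induced by Nodal. It stood at 11.33 on the log2 scale in EpiSCs, 7.69 in the rosette, 7.35 and 7.68 in OPCs, and 7.58 and 7.64 in oligodendrocytes, and it fell by 3.81 in OPCs (SE 0.21, limma adjusted p = 0.0022). Mixl1, a homeobox gene of the streak that directs mesendoderm, was also called. Its log2 values were 9.83 in EpiSCs, 7.97 in the rosette, 7.98 and 8.31 in OPCs, and 8.14 and 8.51 in oligodendrocytes. The difference of the rosette from EpiSCs fell just short of 4-fold, and OPCs differed by -1.69 (SE 0.25, limma adjusted p = 0.0216). The Mixl1 call ended without the passage 3 OPC array (-1.52, adjusted p = 0.0875) and without the passage 11 one (-1.85, adjusted p = 0.0528).

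Gsc, the homeobox gene goosecoid of the anterior streak and the node, was not called. It had a log2 value of 9.42 in EpiSCs, 9.16 in the rosette, 8.97 and 9.19 in OPCs, and 8.89 and 9.09 in oligodendrocytes. The EpiSC array was the highest by 0.23, while the later arrays spanned 0.30. OPCs minus EpiSCs was -0.34 (95% interval -0.84 to 0.16, limma adjusted p = 0.457), so a fall of the size seen for Eomes or Mixl1 lies outside the interval. Fgf8, a growth factor of the streak that mesoderm needs in order to migrate and that later patterns the brain, lay between the 2 patterns. Its log2 values were 10.47 in EpiSCs, 9.36 in the rosette, 9.43 and 9.81 in OPCs, and 9.52 and 9.73 in oligodendrocytes. OPCs differed from EpiSCs by -0.84 (95% interval -1.43 to -0.26, limma adjusted p = 0.110). Fgf8 did pass with passage as a block, a term for passage in the fit (limma adjusted p = 0.0389). It also passed without either oligodendrocyte array, at the same difference of -0.84. Those 2 fits are 1 check, since each takes its spread from the OPC pair alone.

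**Figure D2:**
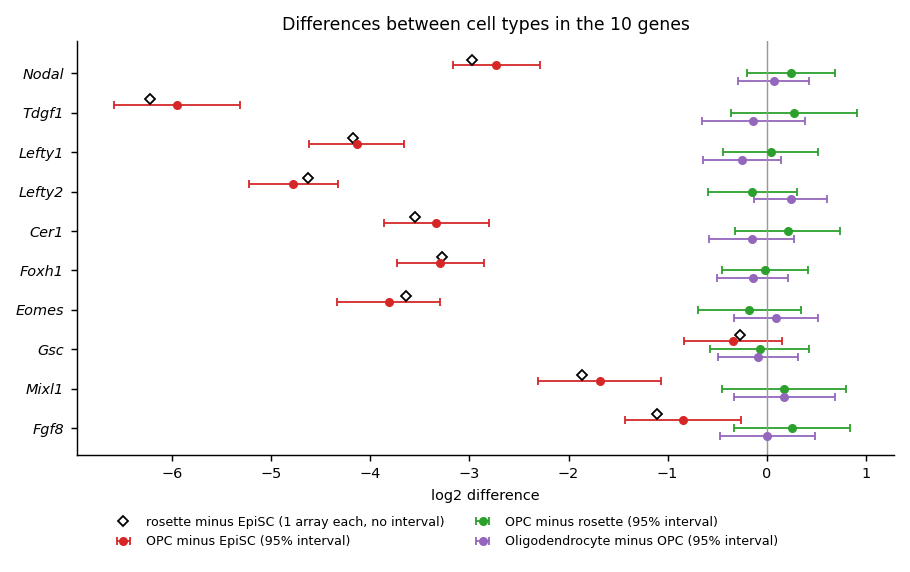
Log2 differences of the 10 genes (horizontal axis) between cell types. Diamonds are the rosette minus EpiSCs, 1 array each, and circles with bars are limma estimates with 95% intervals. Differences from EpiSCs run down to -6.23 for Tdgf1, while those of OPCs from the rosette and of oligodendrocytes from OPCs lie between -0.25 and 0.28.

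After the rosette stage no further difference was called in these genes. Between OPCs and the rosette 0 of 10 were called by limma, and 0 of 10 had an unadjusted p under 0.05, against 1.26% of all genes called higher and 1.87% called lower. The estimates lay between -0.17 for Eomes and 0.28 for Tdgf1, and all their 95% intervals lay within -0.70 and 0.91. The culture conditions differ here, since SB431542 was among the factors used for rosettes and is not among those listed for OPCs. Between oligodendrocytes and OPCs 0 of 10 were called by limma, with 0 at an unadjusted p under 0.05, against 0.396% of all genes called higher and 0.0502% lower. Those estimates ran from -0.25 for Lefty1 to 0.24 for Lefty2, within 95% bounds of -0.65 and 0.69. By cell type means below EpiSCs, the rosette was lowest for 5 genes, OPCs for 2 and oligodendrocytes for 3, and neither OPCs against the rosette nor oligodendrocytes against OPCs gave a call. Both comparisons use the OPC arrays. Their counts of 0 are near the shares of all genes. For 8 of the 10 genes all 5 later arrays lay under the median of all values, 9.005. The part of low signal in these small differences was not tested.

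Passage was compared within the OPC and oligodendrocyte cultures. Passage 11 exceeded passage 3 for 10 of the 10 genes in oligodendrocytes, and for 9 in OPCs, where Lefty2 was the exception. The differences were small, at most 0.50 in oligodendrocytes (Tdgf1) and 0.39 in OPCs (Fgf8). Of all genes, 57.1% were higher at passage 11 in oligodendrocytes and 54.4% in OPCs. Among genes whose mean lay under the median of all values, 9.005, as did those of 8 of the 10, the shares were 72.7% in oligodendrocytes and 68.8% in OPCs. The part of low signal in the passage difference was not tested further. With cell type as a covariate 0 of 10 passed in limma and 0% of all genes were called, while 1 of the 10, Mixl1, had an unadjusted p under 0.05 (difference 0.35, adjusted p = 0.357), as did 2769 genes in all. In that fit the 1 residual degree of freedom measures how alike the passage difference is in OPCs and oligodendrocytes, not a spread between cultures.

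**Figure D3:**
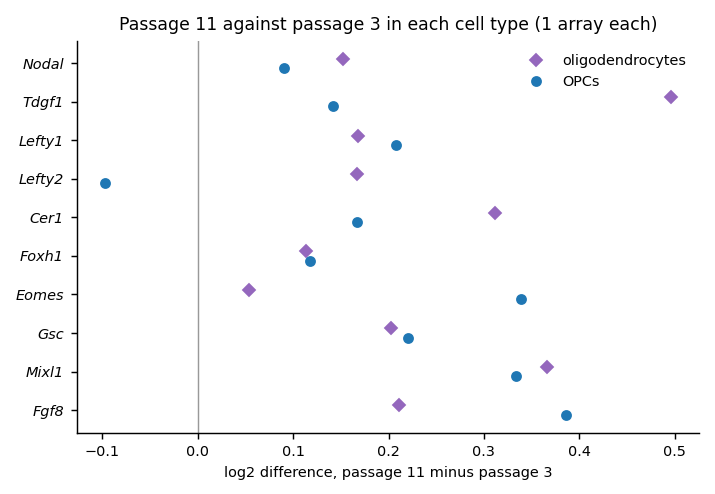
Log2 difference between passage 11 and passage 3 (horizontal axis) for each gene, in oligodendrocytes (diamonds) and in OPCs (circles), 1 array at each passage. All points but that of Lefty2 in OPCs, at -0.10, lie above 0, and the highest is Tdgf1 in oligodendrocytes at 0.50.

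Of 43 other genes of the pathway, in 5 lists, 3 rose (6.98%, against 4.07% of all genes) and 5 fell (11.6%, against 2.93% of all genes) in OPCs relative to EpiSCs by limma. In the rosette 1 was 4-fold higher than in EpiSCs (2.33%, near the 1.75% of all genes). Another 2 were 4-fold lower (4.65%, against 0.797% of all genes). Among 8 receptors and co-receptors other than Tdgf1, 0 were 4-fold apart between the rosette and EpiSCs, with a median of 0.16. That count is near the shares of all genes, 0.797% lower and 1.75% higher. Between OPCs and EpiSCs 0 rose (4.07% of all genes) and 1 fell in limma (12.5%, against 2.93% of all genes), with a median of -0.11. The exception was Tgfbr3, the TGF-beta co-receptor betaglycan, at -1.63 (SE 0.16, limma adjusted p = 0.0078). Its call ended without either OPC array, although the difference stayed between -1.64 and -1.62. Tgfbr1, a type I receptor blocked by SB431542, was highest in the rosette: its log2 values were 10.57 in EpiSCs, 12.38 in the rosette, 11.05 and 10.79 in OPCs, and 10.64 and 10.54 in oligodendrocytes. Acvr1b, a type I receptor that Nodal uses, had 10.01 in EpiSCs, 10.79 in the rosette, 9.79 and 9.62 in OPCs, and 9.59 and 9.64 in oligodendrocytes. Acvr2b, a type II receptor, had 10.05 in EpiSCs, 10.39 in the rosette, 9.27 and 9.15 in OPCs, and 9.31 and 9.49 in oligodendrocytes. For these 3 the rosette array was the highest of the 6. All 3 were lower in OPCs than in the rosette by limma, Tgfbr1 by -1.46 (SE 0.19, adjusted p = 0.0262), Acvr2b by -1.18 (adjusted p = 0.0396) and Acvr1b by -1.08 (adjusted p = 0.0458). Without the OPC array of passage 3 their adjusted p-values were 0.0837, 0.169 and 0.182, and without that of passage 11 they were 0.156, 0.253 and 0.300. With a variance trend in limma the adjusted p was 0.0502 for Acvr2b and 0.0687 for Acvr1b.

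Of 12 SMADs and nuclear partners other than Foxh1, 0 were 4-fold apart between the rosette and EpiSCs. That count is near the shares of all genes, 0.797% lower and 1.75% higher. Between OPCs and EpiSCs 1 was called in limma, Skil, and it fell (8.33%, against 2.93% of all genes called lower). Tgif1, a SMAD-binding repressor, had a difference as large as that of Skil, -1.84, but its pairs were widely spaced, at 9.95 and 9.37 in OPCs and 10.09 and 8.74 in oligodendrocytes, and it was not called (SE 0.58, adjusted p = 0.148). The signal-transducing SMAD genes were not called between OPCs and EpiSCs, which differed in Smad2 by 0.08 (95% interval -0.37 to 0.53), Smad3 by 0.22 (-0.69 to 1.13) and Smad4 by -0.13 (-0.69 to 0.44), with limma adjusted p from 0.883 to 0.928. Skil encodes SnoN, a repressor of SMADs that TGF-beta signalling also induces. It had a log2 value of 11.01 in EpiSCs, 11.29 in the rosette, 9.38 and 9.06 in OPCs, and 9.66 and 9.44 in oligodendrocytes. Its rosette value was as high as that of EpiSCs, unlike those of the 7 genes that were 4-fold lower there. OPCs fell below the rosette by 2.07 (SE 0.22, limma adjusted p = 0.0152) and below EpiSCs by 1.78 (adjusted p = 0.0131). Without the OPC array of passage 11 those adjusted p-values were 0.0673 and 0.0617.

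Other inhibitors of TGF-beta family signals followed several courses. Among 10 inhibitors other than the Lefty genes and Cer1, 1 was 4-fold lower in the rosette, Fst (10%, against 0.797% of all genes). In OPCs 2 were lower than in EpiSCs, Fst and Smad7 (20%, against 2.93% of all genes), with 0 higher. Fst encodes follistatin, which binds activin. Its log2 values were 12.48 in EpiSCs, 8.96 in the rosette, 8.82 and 8.99 in OPCs, and 10.17 and 9.001 in oligodendrocytes, where the passage 3 array stood above the others. OPCs minus EpiSCs was -3.57 for Fst (SE 0.47, limma adjusted p = 0.0165). Smad7, an inhibitory SMAD, had 10.47 in EpiSCs, 9.76 in the rosette, 8.72 and 9.06 in OPCs, and 10.62 and 10.73 in oligodendrocytes. Its oligodendrocyte arrays were both above its OPC arrays, and it rose by 1.79 between the 2 (SE 0.17, limma adjusted p = 0.0407), having been lower in OPCs than in EpiSCs by -1.58 (adjusted p = 0.0166). The rise was lost without the OPC array of passage 3 (adjusted p = 0.189) or passage 11 (adjusted p = 0.142) and without dim genes, those with no array above the median of all values (adjusted p = 0.0529), and the difference from EpiSCs without that of passage 3 (adjusted p = 0.0796). Pmepa1, a SMAD-binding feedback gene, had 11.22 in EpiSCs, 9.85 in the rosette, 10.93 and 11.03 in OPCs, and 11.46 and 11.28 in oligodendrocytes, so the rosette was lowest. OPCs exceeded the rosette in Pmepa1 by 1.13 (SE 0.18, limma adjusted p = 0.0427), which did not hold without the OPC array of passage 3 (adjusted p = 0.189) or passage 11 (adjusted p = 0.267) or with a variance trend (adjusted p = 0.0673).

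**Figure D4:**
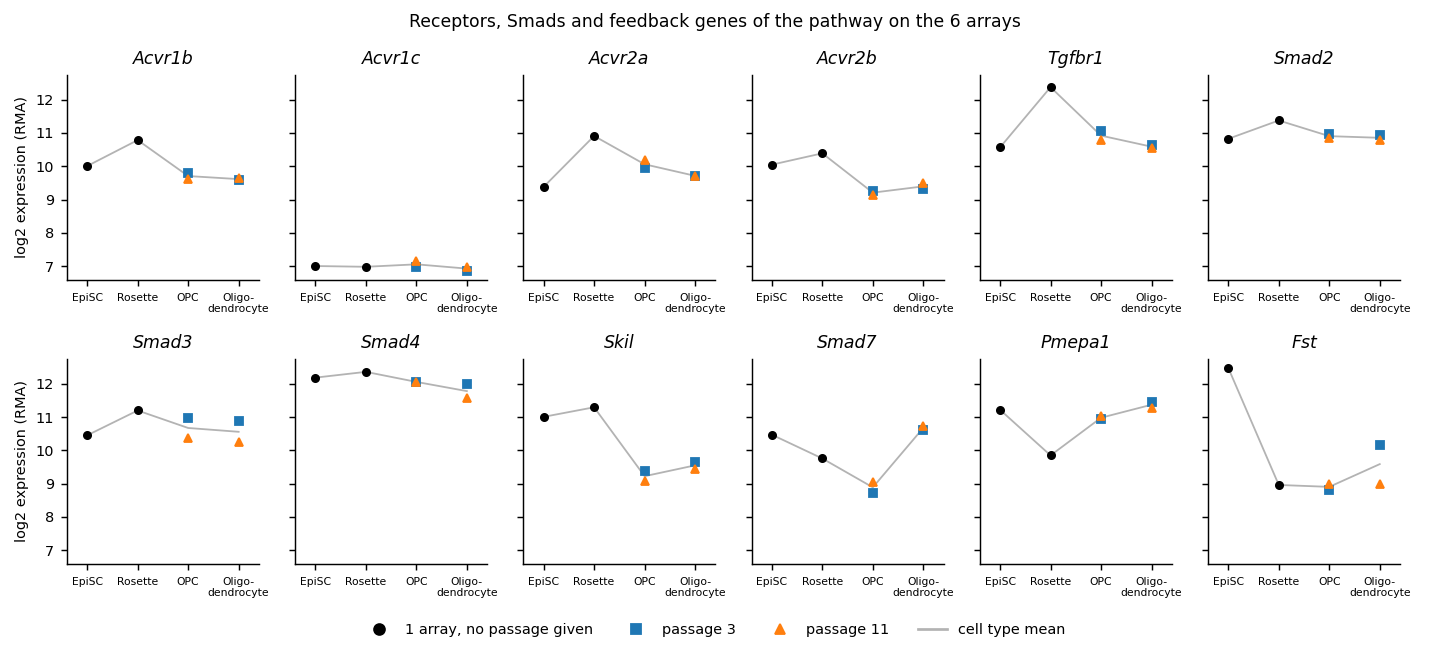
Log2 expression (vertical axis) of 5 receptors, 3 SMADs and 4 SMAD-linked or inhibitor genes on the 6 arrays, by cell type in order of differentiation. Circles are single arrays, squares passage 3, triangles passage 11 and the grey line the cell type means. Tgfbr1 peaks in the rosette at 12.38, Smad7 is lowest in OPCs, and of the 12 genes Fst has the lowest rosette value relative to EpiSCs.

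Of 8 ligands other than Nodal, 1 was 4-fold lower in the rosette, Gdf3 (12.5%, against 0.797% of all genes). Another 1 was 4-fold higher, Gdf11 (12.5%, against 1.75% of all genes). Gdf3, a ligand related to Nodal in function, had log2 values between 8.11 and 8.51 on the later arrays, against 11.61 in EpiSCs, and fell by 3.33 in OPCs (SE 0.22, limma adjusted p = 0.0031). Gdf11, which patterns the embryonic axis, was higher in OPCs than in EpiSCs by 1.63 (SE 0.20, limma adjusted p = 0.0129), although not without the OPC array of passage 11 (adjusted p = 0.0737). Tgfb2 was also higher in OPCs, by 1.20 against EpiSCs (SE 0.18, limma adjusted p = 0.0239), but not without the OPC array of passage 3 (adjusted p = 0.121) or passage 11 (adjusted p = 0.151). Of 5 convertases and carriers that process or bind such ligands, 0 were 4-fold apart in the rosette, which is near the shares of all genes. In OPCs against EpiSCs 1 was called higher (20%, against 4.07% of all genes). That was Pcsk6, the convertase PACE4, which cleaves the Nodal precursor, and it was higher by 1.47 (SE 0.28, limma adjusted p = 0.0435), but not without the OPC array of passage 11 (adjusted p = 0.134). Of 6 FGF ligands other than Fgf8, 0 rose and 2 fell in OPCs (33.3%, against 2.93% of all genes). Fgf5, a marker of the epiblast, fell by 3.09 (SE 0.17, limma adjusted p = 0.0022) and Fgf15 fell by 1.82 (SE 0.20, adjusted p = 0.0096). Fgf15 lost its call without the OPC array of passage 11 (adjusted p = 0.0528).

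Among primitive streak and mesendoderm factors beyond the 10 genes, some were also lower after the EpiSC stage. Of 21 measured, 3 lay 4-fold or more under EpiSCs in the rosette (14.3%, against 0.797% of all genes), namely Wnt8a, Otx2 and Zic2, and 0 were 4-fold higher. In OPCs against EpiSCs 4 fell by limma (19.0%, against 2.93% of all genes) and 0 rose, with a median over the 21 of -0.37. Wnt8a, a Wnt ligand of the streak, had a log2 value of 11.74 in EpiSCs, 8.32 in the rosette, 8.36 and 8.44 in OPCs, and 8.15 and 8.27 in oligodendrocytes, and fell by 3.34 in OPCs (SE 0.17, adjusted p = 0.0021). Zic2 fell by 4.30 (SE 0.21) and Otx2 fell by 4.21 (SE 0.21), each at a limma adjusted p of 0.0021, and Wnt3, the Wnt ligand that starts the streak, fell by 1.06 (SE 0.21, adjusted p = 0.0483). Wnt3 was not called without dim genes (adjusted p = 0.0544), nor without the OPC array of passage 3 (adjusted p = 0.242) or passage 11 (adjusted p = 0.154). Otx2 and Zic2 are also epiblast and neural factors, and Otx2 is 1 of the 8 epiblast markers. In OPCs against the rosette 3 of the 21 fell (14.3%, against 1.87% of all genes) and 0 rose. Lhx1 fell by 2.70 (SE 0.20, limma adjusted p = 0.0063), Sp8 fell by 1.82 (adjusted p = 0.0174) and Otx2 fell by 1.75 (adjusted p = 0.0202). Unlike Otx2, Lhx1 and Sp8 were above EpiSCs in the rosette, by 1.95 and 1.80, and OPCs minus EpiSCs was -0.75 for Lhx1 and -0.02 for Sp8. Without the OPC array of passage 3 the adjusted p was 0.0796 for Sp8 and 0.0582 for Otx2, and without that of passage 11 it was 0.0732 for Sp8 and 0.105 for Otx2. Of 11 mesoderm markers, 0 were 4-fold apart in the rosette and 0 were called between OPCs and EpiSCs, with a range of -1.01 to 0.59 in OPCs. Both counts are near the shares of all genes (0.797% lower and 1.75% higher at 4-fold, 2.93% lower and 4.07% higher in limma). By sign, 10 of the 11 were below EpiSCs and 1 above in the rosette, and 9 were below and 2 above in OPCs. Of all genes, 41.3% were above EpiSCs in the rosette and 42.4% in OPCs. Among genes whose mean lay under the median of all values, the shares were 29.3% in the rosette and 34.4% in OPCs. Among the markers, Meox1 had log2 values of 7.58 to 8.01 on the later arrays, against 8.79 in EpiSCs. Mesp1, a marker of nascent mesoderm, had 7.67 to 8.03, against 7.97 in EpiSCs. The mean log2 value of the 11 markers lay between 8.05 and 8.31 on the later arrays, against 8.49 in EpiSCs, and that of the 12 endoderm markers between 8.14 and 8.32, against 8.45 in EpiSCs. Of 10 fibroblast markers, 0 were 4-fold apart in the rosette and 0 were called between OPCs and EpiSCs, again near the shares of all genes. By sign, 7 of the 10 were below EpiSCs in the rosette and 8 in OPCs. The part of mesoderm or endoderm cells in the EpiSC values was not tested.

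**Figure D5:**
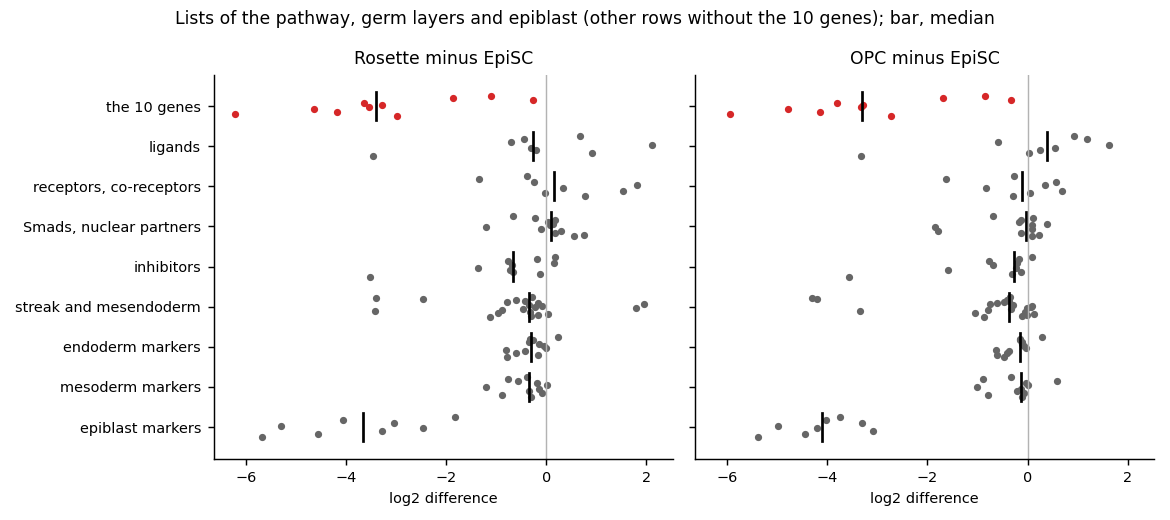
Log2 difference from EpiSCs (horizontal axis) of each gene in the lists named at left, for the rosette and for OPCs, with a bar at the list median. Points are genes, and lists below the top row leave out the 10 genes. The medians of the 10 genes, -3.41 in the rosette and -3.31 in OPCs, lie near those of the 8 epiblast markers, -3.66 in the rosette and -4.12 in OPCs.

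The genes whose pattern was most like the mean of the 10 were found over the 6 arrays, which cover 4 cell types. The search covered 1514 genes that spanned at least 4-fold and had their highest value above the median of all values. It left out the 10 genes and predicted genes. The highest Pearson correlations, from 0.9986 to 0.9999, were those of Phlda2, Mir367, Epcam, Cdh1, Stat4, Cyp2b23, Mir302a and Slc39a8. Phlda2 is an imprinted growth regulator, Epcam and Cdh1 encode epithelial adhesion proteins, and Mir367 and Mir302a are microRNA genes of 1 cluster active in pluripotent cells. In all, 50 genes exceeded 0.99, and since 1 array stands apart in the mean of the 10, the measure mainly records that contrast. Phlda2, for example, had log2 values of 7.97 to 8.25 on the later arrays, against 12.20 in EpiSCs.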

How the data were processed

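RNA was measured on 6 arrays. Expression was deposited on the log2 scale after RMA. The submitters' processing notes name Affymetrix Expression Console for this step, and its version is not given in the sources used here. They ranged from 3.26 to 14.9, with array medians of 8.98 to 9.04 over the genes kept. Precision is limited by how few arrays there are.

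Of 35556 rows, 21789 carried 1 gene symbol, 1621 several and 12146 none, in the array annotation. The row with the highest mean was kept for each of 19938 genes. A single model of all 6 arrays with 4 cell types was fitted in limma 3.58.1 under R 4.3.3 (lmFit, eBayes, 2 residual and 3.32 prior degrees of freedom). Tests were two-sided, and a gene was called at 0.05 after Benjamini-Hochberg adjustment over all genes. Passage was tested on 4 arrays with cell type as a covariate (1 residual and 3.19 prior degrees of freedom). The rosette and EpiSCs, 1 array each, were compared by size, at 4-fold. The fit was also run on simulated data, whose outcome is not given here. Noise was independent between the simulated arrays, so that run does not cover the correlation of same-passage arrays described below.

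Per the labels, the oligodendrocytes of each passage were made from OPCs of that passage, which pairs the arrays by passage without saying that they share a culture, and the deviations of same-passage arrays from their group means correlated at 0.503 across genes. Alternatives were the mean of a gene's rows, leaving out dim genes (highest array at or under 9.005), a variance trend, arrays centred on their medians, passage as a block and leaving out each OPC or oligodendrocyte array.

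The members and lists were chosen with earlier results of these data known. Named genes are the 10, up to 5 of each list that were called or differed most, the 8 most like the 10 in pattern, and markers a result turns on. Some list genes were not analysed here. Protein sequences were not used here, so a planned comparison of the Lefty proteins was not made.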

Additional observations from a re-analysis of the deposited data

Results flagged for a closer look

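Lefty2 was the 1 gene of the 10 whose passage difference had opposite signs in the cell types: passage 11 minus passage 3 was 0.17 on the log2 scale in oligodendrocytes and -0.10 in OPCs. The difference between the cell types was not tested, since each has 1 array a passage. Groups of 2 arrays were too small to test for a sample that stands apart.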

How the results depend on the processing

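Of the 10 genes, 8 were called in OPCs against EpiSCs under the mean of a gene's rows, the variance trend, centred arrays and without dim genes; all 10 passed that filter, 8 of them through the EpiSC array alone. The count was 9 with the passage block and 7 to 9 without 1 array, where Mixl1 or Fgf8 changed sides. Over all genes it was 1397 and moved to 2318 with the block and to between 470 and 4154 without 1 array. For OPCs against the rosette the count of all genes was 624, 1206 with the block and 156 to 2897 without 1 array. For oligodendrocytes against OPCs it was 89, 157 with centred arrays, 20 without dim genes and 2 to 2919 without 1 array. Leaving out an array leaves 1 residual degree of freedom, and a lone sample is then assumed to vary like the other group. The passage block changed no other call among the 10. For passage the count was 0, 2 with centred arrays and 1 with the variance trend. At 2-fold, 2113 genes and 9 of the 10 differed between the rosette and EpiSCs, against 507 and 7 at 4-fold.

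Uncalled differences of the 10 that turned sign were all small. With centred arrays Foxh1 was at 0.028 for OPCs minus the rosette and Fgf8 at -0.0011 for oligodendrocytes minus OPCs. Without 1 array, OPCs minus the rosette ranged from -0.076 to 0.041 for Foxh1, -0.18 to 0.038 for Gsc and -0.064 to 0.14 for Lefty1. Oligodendrocytes minus OPCs ranged from -0.31 to 0.0046 for Cer1, -0.074 to 0.26 for Eomes, -0.19 to 0.20 for Fgf8, -0.20 to 0.021 for Gsc, -0.0050 to 0.36 for Mixl1, -0.0057 to 0.15 for Nodal and -0.38 to 0.11 for Tdgf1. Leaving out 1 array breaks the pairing by passage. Within passages 3 and 11, oligodendrocytes minus OPCs kept 1 sign for Cer1 (-0.22 and -0.079), Gsc (-0.080 and -0.099), Mixl1 (0.16 and 0.19) and Nodal (0.040 and 0.10). The sign differed for Tdgf1 (-0.31 and 0.044), Eomes (0.24 and -0.047) and Fgf8 (0.094 and -0.082). The cause of the other changes was not tested.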
